A study of Homo sapiens with 10 samples.

Results

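The mRNAs of the cytosolic translation initiation factors (eIFs) and elongation factors (eEFs) were followed in HEK293T cells cultured for 24 h with different amounts of cysteine. Members were all protein-coding genes whose symbol in GENCODE release 44 starts with EIF1 to EIF6 or with EEF1 or EEF2, without the eIF2 kinases EIF2AK1 to EIF2AK4, EIF2S1, EIF4EBP1, EEF1E1 and the EEF1A lysine methyltransferases. This rule uses names and no measured value, and it gave 59 genes of the 78894 in the table, all of which were found there. Of these, 57 passed the filter on low values (a normalized read count no lower than 10 in 3 libraries) and were tested, among 29045 genes tested in all. EIF4E1B, with at most 8 reads in a library, and EIF1AY did not pass. EEF1E1-BLOC1S5, a readthrough gene joining EEF1E1 to its neighbour BLOC1S5, entered by its spelling only, and all of its exon bases lie in exons of other genes.

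HEK293T is a transformed human embryonic kidney line, here a single line, so that replicates are cultures labelled as biological replicates of that line and not donors. Poly(A) RNA was sequenced from 2 libraries of cells in cysteine-free medium (0X), 4 of cells in complete medium (1X) and 4 of cells in medium with 10 times the cysteine of complete medium (10X). The methods describe more than 1 recipe for cysteine starvation, and the account of the RNA samples does not say which was used: in one, cysteine was added in different amounts to a cysteine- and methionine-deficient DMEM with methionine, GlutaMAX, non-essential amino acids and pyruvate, and in the other, starvation medium with dialyzed serum was set against complete DMEM. Whether the media differed by cysteine alone is therefore not stated, and only the first recipe has a medium with 10 times the cysteine. The study set cysteine-free against complete medium, and the excess medium is a further arm of the same table. The legend of the study's plot of that comparison gives a replicate number that differs from the 2 and 4 libraries here.

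Translation starts when initiator tRNA, carried by eIF2 and GTP, joins the small ribosomal subunit with eIF1, eIF1A, eIF3 and eIF5, and the mRNA is brought in by the cap-binding eIF4E, the scaffold eIF4G and the helicase eIF4A. After eIF5 has triggered GTP hydrolysis and eIF5B has joined the large subunit, eEF1A delivers aminoacyl-tRNAs, eIF5A helps at difficult peptide bonds and eEF2 moves the ribosome along. Amino acid shortage is known to act on this machinery through phosphorylation of eIF2 and through mTOR, and the mRNAs of many elongation factors carry a pyrimidine tract at their 5′ end through which mTOR regulates their translation. None of these protein-level steps is visible in mRNA counts.

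The libraries held 34836014 to 61654861 reads on genes, and the members took 2.50 to 2.66% of the reads on nuclear genes in 0X and 1X and 2.95 to 3.03% in 10X. Reads of the mitochondrial genome made up 4.51 to 5.71% of the reads in the 0X and 1X libraries and 0.117 to 0.146% in the 10X libraries, and their part in the results below was not tested. All 8 markers listed for HEK293T (VIM, KRT8, KRT18, NEFM, NEFL, CDH2, PAX2, LHX1) passed the filter. Of 6 genes listed for HepG2 and Jurkat cells, which the study also cultured, 1 passed (ALB, at 3.40 to 21.0 normalized counts per library), and CD3E was at 0 in every library. In bulk RNA, fewer cells of one kind and less RNA per cell cannot be told apart, and values are relative to the other mRNAs of a library.

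The start of the mRNA is shown here because members with a listed start were sorted into 2 kinds by it, after sequences and values had been seen. The 10 tested members not in the RefSeq promoter table are in neither kind. Results by kind are given further on. The 25 bases run from 10 before to 14 after the first transcribed base listed by RefSeq (GRCh38.p14), 5′ to 3′ on the gene's strand, and capitals mark an unbroken run of C and T that starts with C at the first transcribed base and is at least 5 bases long. The first lines have such a pyrimidine run and the last 5 lines, from members that changed, have none. The lines are a selection: EIF2D, EIF2S3B, EIF3K and EIF3M have the run too and are not shown. Where RefSeq lists several starts for a gene, the one with the run is shown.
EEF1A1, chr6:73521018-73521042, minus strand: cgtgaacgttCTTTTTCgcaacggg
EEF2, chr19:3985449-3985473, minus strand: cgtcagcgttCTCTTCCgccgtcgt
EEF1B2, chr2:206159885-206159909, plus strand: ctcttcgggtCCTTTTTCCTCTCTT
EIF3D, chr22:36529152-36529176, minus strand: cgcatgtttcCTCTTTTCCTggttt
EIF3F, chr11:7987327-7987351, plus strand: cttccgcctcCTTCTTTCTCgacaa
EIF2A, chr3:150546777-150546801, plus strand: cgagcggtttCTCTTTCCgggacaa
EIF2S3, chrX:24054946-24054970, plus strand: gatttccttcCTCTTTTggcaacat
EIF4B, chr12:53006446-53006470, plus strand: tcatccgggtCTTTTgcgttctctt
EIF4A2, chr3:186783567-186783591, plus strand: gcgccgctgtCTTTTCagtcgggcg
EIF1, chr17:41688875-41688899, plus strand: ccgcccctctgccccagtcactgag
EIF1AX, chrX:20141824-20141848, minus strand: gagtcgcggcgccatttgctgccgc
EIF4A1, chr17:7572815-7572839, plus strand: ggcactccgccctagtttctaagga
EIF5A2, chr3:170908623-170908647, minus strand: cccgtctcttggaactgccgcggcc
EIF5AL1, chr10:79512523-79512547, plus strand: aaaatgcctgggtagaggcggcggc

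Members changed in both altered media, and they did not move together. In 0X against 1X, 21 of the 57 members were called, 5 higher and 16 lower. Called means a Benjamini-Hochberg adjusted p no larger than 0.01 over all 29045 genes (limma on log2 of the normalized count plus 1, 2-sided). Over all genes tested, 15.9% were called, 7.39% higher and 8.51% lower. In 10X against 1X, 43 members were called, 19 higher and 24 lower, beside 46.0% of all genes, 23.1% higher and 22.9% lower. In 10X against 0X, 41 members were called, 23 higher and 18 lower, beside 48.0% of all genes, 24.4% higher and 23.6% lower. The shares of members called were 36.8%, 75.4% and 71.9% in the order of the comparisons. Among the protein-coding genes that passed the filter, which is the class the members come from, 23.1%, 60.1% and 61.9% were called.

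The median log2 fold change over the members was close to 0 in each comparison, at -0.059, -0.018 and -0.040, beside 0.0024, 0.014 and 0.000010 over all genes. Single members ranged from -0.87 to 0.55 in 0X against 1X, from -1.11 to 0.98 in 10X against 1X and from -1.0 to 1.27 in 10X against 0X. The split into higher and lower depended on scaling. With libraries scaled to equal totals, the median of all genes in 10X against 1X lay at 0.12, 61.8% of called genes were higher in place of 50.3%, and 25 members were called higher and 19 lower. In 0X against 1X, 12 members were called higher and 16 lower with equal totals, and 14 and 15 with equal totals over nuclear genes. The 0X group has only 2 libraries: without its replicate 1, 8 members were called against 1X, and without its replicate 2, 7 were. EIF5, EIF3B, EIF4G1, EIF1AX, EIF3C and EIF3CL kept their call whichever of both was left out, and with no filter on low values the first 3 of these were the only members called in 0X.

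**Figure D1:**
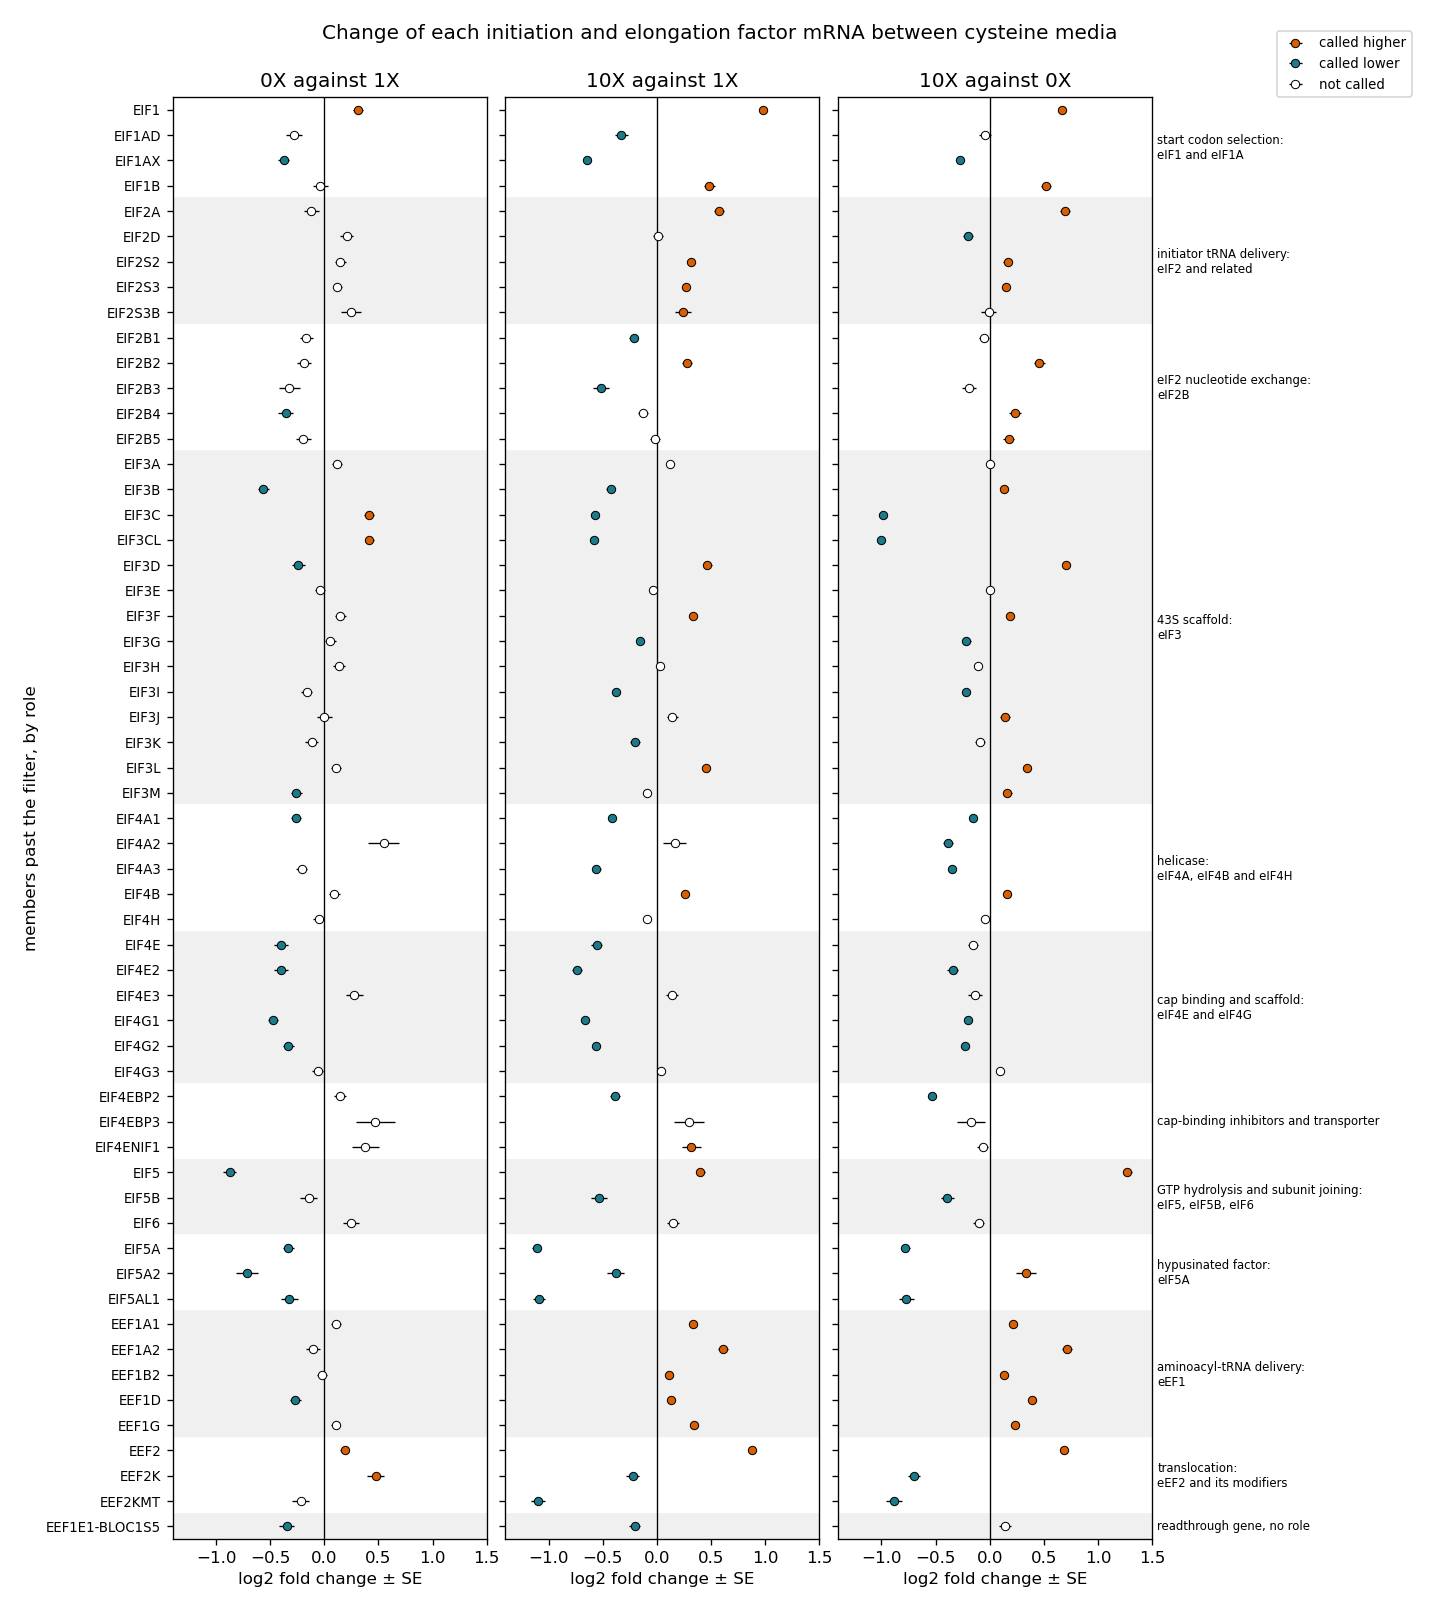
Log2 fold change ± SE (x axis) of the 57 tested members, grouped by role, in 0X against 1X, 10X against 1X and 10X against 0X; filled points were called higher or lower. EIF5 lies at -0.87, 0.40 and 1.27 in the 3 panels, EIF1 and EEF2 lie right of 0 in all of them, and EIF5A and EIF5AL1 lie left of 0 in all of them.

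The comparisons of 0X and of 10X with 1X share the 1X libraries, so the calls are set side by side and no overlap was tested. The share of all genes with each pattern was not taken, so the counts do not show whether members differ from other genes. They also count near-identical copies (EIF3C with EIF3CL, EIF5A with EIF5AL1, EIF2S3 with EIF2S3B) as separate members. Both comparisons were lower for 11 members and both higher for 2 (EIF1 and EEF2). EIF5, EIF3D and EEF1D, 3 members, were lower in 0X and higher in 10X, and 3 others, EIF3C, EIF3CL and EEF2K, were higher in 0X and lower in 10X. In 10X only, 14 members were called higher and 10 lower, in 0X only 2 were called lower (EIF3M and EIF2B4) and none higher, and 12 were called in neither. For all 6 members of the opposed kinds the direct comparison of 10X with 0X was called too. Their opposite changes make this nearly certain, and the same 0X and 10X libraries are used, so it is no separate support. Among the 20 tested members that share no exon base with another gene, 9 were called in 0X (3 higher, 6 lower) and 18 in 10X (7 higher, 11 lower). Of all tested protein-coding genes, 23.1% and 60.1% were called. The 20 are not free of shared reads, since they include the near-identical copies EIF3C, EIF3CL, EIF5AL1, EIF2S3 and EIF2S3B. EIF3C and EIF3CL are both among the 3 that were higher in 0X. The readthrough gene EEF1E1-BLOC1S5 fell by 0.35 in 0X and by 0.21 in 10X, and its reads cannot be told from those of the genes it spans.

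Per kb of exon, the elongation factors EEF2, EEF1G and EEF1A1 stood above all other tested members in all media, while EEF1D and EEF1A2 ranked 30 and 37 of 57 in 1X. In 1X, EEF2 had 32025 ± 886 normalized reads per kb (SD, n = 4), EEF1G 27478 ± 914 and EEF1A1 26975 ± 1024, and the latter 2 differed by less than the SD of either. Next came EIF5A at 10716 ± 507. In 10X, EIF1 at 13957 ± 429 and EEF1B2 at 8898 ± 176 stood above EIF5A at 4963 ± 220 (n = 4). The lowest of the tested members in 1X was EIF5A2 at 91.3 ± 5.0 reads per kb. Exon length counts every annotated exon of a gene, which lowers the per-kb level of genes with long, rarely used exons.

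**Figure D2:**
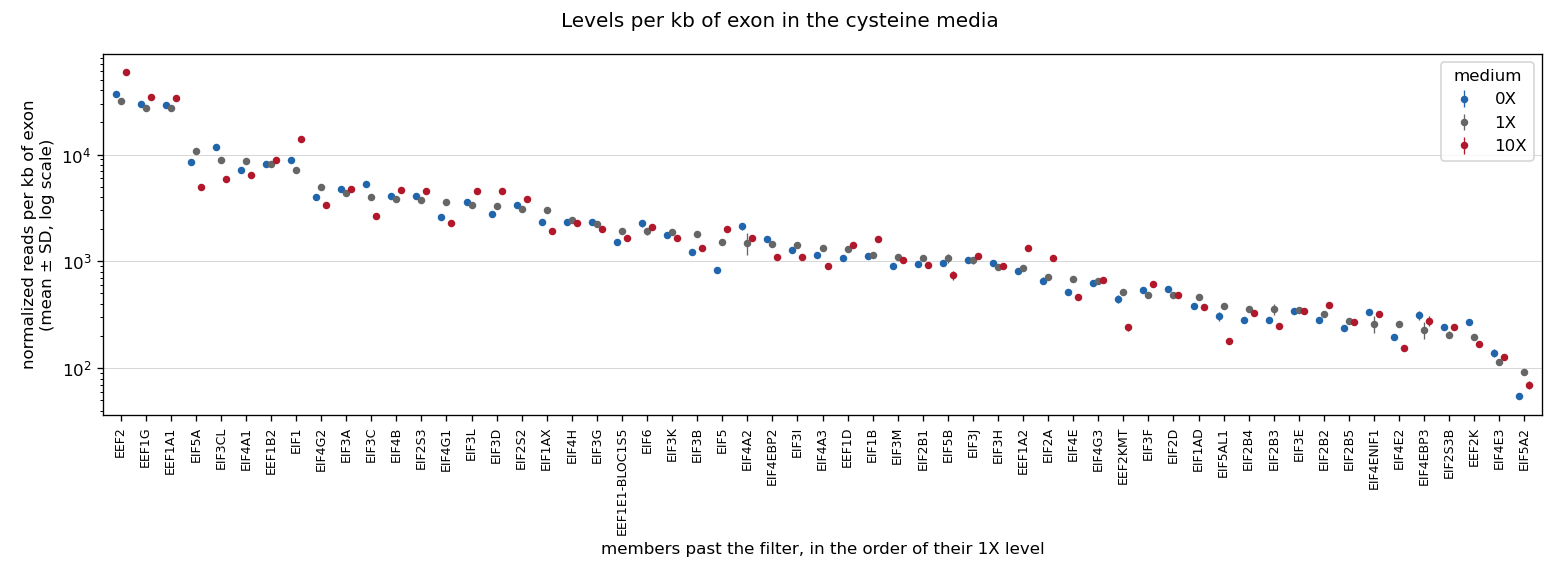
Mean ± SD normalized reads per kb of exon (y axis, log scale) of the 57 tested members in 0X (n = 2), 1X (n = 4) and 10X (n = 4), ordered by the level in 1X. EEF2, EEF1G and EEF1A1 lie highest in every medium and EIF5A2 lowest, at 91.3 in 1X, and EIF5A drops from 10716 in 1X to 4963 in 10X.

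Among the factors of start codon selection, EIF1 rose in both altered media and EIF1AX fell in both. EIF1 (chr17:41688885-41692668, plus strand) encodes the factor that guards against pairing at wrong start codons. It had normalized read counts of 31112 and 32679 in 0X, of 26999.6, 25338, 24725 and 25722 in 1X and of 48530.2, 51833, 50172 and 51726 in 10X. No library of one medium overlapped with those of another, and the 10X libraries stood highest. The log2 fold change was 0.31 ± 0.05 (SE) in 0X against 1X (limma adjusted p = 0.000376, n = 2 and 4), and the call was lost without 0X replicate 2. In 10X against 1X it was 0.98 ± 0.04 (limma adjusted p = 7.40e-13, n = 4 and 4). Its paralog EIF1B was at -0.04 in 0X, not called, and rose by 0.48 in 10X. EIF1AX, which encodes eIF1A, a factor that supports scanning, fell by 0.38 in 0X and by 0.65 in 10X. EIF1AD, named for an eIF1A-like domain, was at -0.28 in 0X, not called, and fell by 0.33 in 10X.

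Exact permutation tests on the log2 values of single members cannot go below p = 0.067 with 2 against 4 libraries or below 0.029 with 4 against 4. Every member described here as not overlapping between 10X and 1X reached 0.029, and the model over all genes is therefore the test to which calls refer.

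Of the 5 mRNAs of eIF2 and related initiator tRNA carriers, none was called in 0X and 4 rose in 10X, counting the copy EIF2S3B. Those of the exchange factor eIF2B were split in 10X. EIF2S3, the gamma subunit of eIF2, had counts of 16890.4 and 16552 in 0X, of 15690.4, 15322, 15258 and 15285 in 1X and of 18389.5, 18628, 18359 and 18649 in 10X. The 3 media did not overlap, with 1X lowest. Its log2 fold change was 0.12 in 0X, not called, and 0.27 ± 0.03 in 10X (limma adjusted p = 1.22e-06, n = 4 and 4). EIF2S2, the beta subunit, rose by 0.31 in 10X and EIF2A, an initiator tRNA-binding protein outside the eIF2 complex, by 0.58. EIF2A shares 4.27% of its exon bases with SERP1 on the opposite strand, whose own difference was 1.00. EIF2S3B, a copy of EIF2S3, held 4.18 to 5.31% of the counts of EIF2S3 in each library, and near-identical genes can share reads. It was called higher by 0.24 in 10X, with overlapping groups. EIF2D, which delivers tRNA without GTP, was at 0.21 in 0X and 0.0080 in 10X, called in neither, and at -0.20 between 10X and 0X, called. The lack of calls in 0X depended on the method. With DESeq2, EIF2D was called higher there, at 0.21. With equal totals over nuclear genes, EIF2D, EIF2S2 and EIF2S3 were called higher in 0X, at 0.24, 0.18 and 0.15.

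All 5 eIF2B subunits had log2 fold changes below 0 in 0X, from -0.36 to -0.17, and 1 of them was called, EIF2B4 at -0.36, a call lost on leaving out either 0X library. EIF2B1, the alpha subunit, had 3363 and 3553 counts in 0X, 4031, 3786, 3779 and 3925 in 1X and 3196, 3331, 3446 and 3394 in 10X. Its 1X libraries stood above those of both other media, which overlapped with each other. The fold change in 10X was -0.22 (limma adjusted p = 0.000344, n = 4 and 4), a call lost with equal totals. EIF2B3, the gamma subunit, fell by 0.52 in 10X, whereas EIF2B2, the beta subunit, rose by 0.27. EIF2B5, the catalytic epsilon subunit, was at -0.018 in 10X and not called, and its sign changed with equal totals.

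The subunits of eIF3, the scaffold that holds the small subunit to the other factors, were called in both directions, as were genes at large. Of 14 genes, 2 were called higher and 3 lower in 0X, 3 higher and 6 lower in 10X, and 6 higher and 4 lower in 10X against 0X. The called shares were 35.7%, 64.3% and 71.4%, beside 23.1%, 60.1% and 61.9% of all tested protein-coding genes. EIF3C and its near-identical copy EIF3CL count as 2 genes here, and they are the 2 that were higher in 0X. EIF3C (chr16:28688558-28735727, plus strand), a core subunit, moved in opposite directions in the altered media. Its counts were 36234 and 37099.9 in 0X, 28547, 26966, 27692 and 26967 in 1X and 18006, 18478, 18744 and 18715 in 10X. The media formed 3 separate steps, with 0X highest and 10X lowest. The log2 fold change was 0.41 ± 0.04 in 0X (limma adjusted p = 2.41e-05, n = 2 and 4), -0.58 ± 0.03 in 10X (limma adjusted p = 1.88e-10, n = 4 and 4) and -0.99 ± 0.03 between 10X and 0X (limma adjusted p = 6.82e-18, n = 4 and 2). Its near-identical neighbour EIF3CL (chr16:28379579-28403841, minus strand) had 35551 and 36458 counts in 0X, 27939.7, 26419, 27208 and 26338 in 1X and 17536, 17954, 18281 and 18244 in 10X, again without overlap. These are 97.2 to 98.3% of the EIF3C counts in every library, so the pair is 1 measurement and its reads cannot be assigned to either gene.

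EIF3B, also a core subunit, was lower in both altered media. It had counts of 10895 and 11161 in 0X, of 16952, 15925, 15545 and 16739.6 in 1X and of 11773, 11916, 12203 and 12471 in 10X. The 1X libraries stood well above the rest, and the 10X libraries lay above the 0X libraries. The log2 fold changes were -0.56 ± 0.05 in 0X (limma adjusted p = 5.04e-06, n = 2 and 4) and -0.43 ± 0.04 in 10X (limma adjusted p = 3.65e-08, n = 4 and 4). EIF3D, a subunit that can bind the cap of some mRNAs, fell by 0.24 in 0X, a call lost on leaving out either 0X library, and rose by 0.47 in 10X. EIF3L rose by 0.46 in 10X and EIF3F by 0.33, while EIF3I fell by 0.38. EIF3L shares 41.1% of its exon bases with a same-strand gene without a symbol (ENSG00000279738) whose difference was 0.47. EIF3A, the largest subunit, was at 0.12 in both comparisons and called in neither, and EIF3E was at -0.04 in both, values whose sign changed with quantile normalization. EIF3M fell by 0.26 in 0X and was at -0.095 in 10X, not called. EIF3G fell by 0.16 and EIF3K by 0.20 in 10X, the latter with overlapping groups, and neither was called in 0X. EIF3H and the loosely attached EIF3J, at 0.029 and 0.14 in 10X, were called in neither comparison with 1X.

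The cap-binding and scaffold mRNAs moved one way where they were called, though not under every alternative. Of 6 tested genes, 4 (EIF4E, EIF4E2, EIF4G1 and EIF4G2) were lower in 0X and the same 4 were lower in 10X, and none was higher. EIF4G1 (chr3:184314495-184335358, plus strand) encodes the main scaffold that joins eIF4E, eIF4A and eIF3. Its counts were 22980.2 and 22553 in 0X, 32797, 31618, 31538 and 30369 in 1X and 19556, 19906, 20035 and 20001.3 in 10X. The media were separate, with 1X highest and 10X lowest. The fold change was -0.47 ± 0.05 in 0X (limma adjusted p = 9.52e-06, n = 2 and 4) and -0.67 ± 0.03 in 10X (limma adjusted p = 2.88e-11, n = 4 and 4). EIF4E2, a cap-binding homolog known as a translational repressor, had 2293 and 2239 counts in 0X, 3178, 2971, 2788 and 3019 in 1X and 1724, 1839, 1831 and 1756 in 10X. It too was separate in each medium and followed the same order. Its fold changes were -0.40 ± 0.06 in 0X (limma adjusted p = 0.000543, n = 2 and 4), lost on leaving out either 0X library, and -0.74 ± 0.05 in 10X (limma adjusted p = 1.50e-09, n = 4 and 4). EIF4E, the cap-binding protein itself, fell by 0.40 and 0.56, and EIF4G2, a scaffold without the eIF4E-binding part, fell by 0.33 and 0.56. Their calls in 0X were likewise lost on leaving out either 0X library. The paralogs EIF4E3 and EIF4G3 were not called, at 0.28 and -0.059 in 0X and at 0.14 and 0.034 in 10X. Under alternatives they were called higher: EIF4E3 in 0X with DESeq2, at 0.28, and both in 10X with equal totals, at 0.25 and 0.14.

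Among the helicase and its helpers, EIF4A1 fell in both media and EIF4B rose in 10X. EIF4A1, the main RNA helicase of initiation, had 36836 and 37797 counts in 0X, 47229.7, 43728, 45582 and 42441 in 1X and 31925, 34528, 34105 and 33429 in 10X. The 1X libraries were highest and the media did not overlap. The fold changes were -0.26 ± 0.05 in 0X (limma adjusted p = 0.00153, n = 2 and 4), lost on leaving out either 0X library, and -0.42 ± 0.04 in 10X (limma adjusted p = 6.23e-08, n = 4 and 4). Its reads are shared: SENP3-EIF4A1 held 101.7% and ENSG00000264772 98.9% of its mean count in 1X. EIF4A3, a core of the exon junction complex, was at -0.21 in 0X, not called, and fell by 0.56 in 10X. EIF4B, which stimulates the helicase, rose by 0.26 in 10X, and EIF4H, a related stimulator, was at -0.093 and not called, with the opposite sign under equal totals. EIF4A2, a paralog of EIF4A1 singled out after its values were seen, had counts of 6791 to 11903 in the 1X libraries, beside 12420.1 and 13814 in 0X and 9769.7 to 10446 in 10X. At this spread its difference of 0.55 ± 0.15 in 0X was not called (limma adjusted p = 0.0131, n = 2 and 4), and it was called without 1X replicate 3 or replicate 4. It was also called in alternatives with every library, among them edgeR and quantile normalization, but not with DESeq2 or equal totals.

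The inhibitors of eIF4E were less uniform. EIF4EBP2, which sequesters eIF4E when mTOR is inactive, had counts of 11792 and 12211 in 0X, 11720.0, 10661, 10937 and 10213 in 1X and 8196, 8489.8, 8571 and 7957 in 10X. The 10X libraries lay below all others, and the 0X libraries lay just above those of 1X. The fold change was 0.14 in 0X, not called, and -0.39 ± 0.04 in 10X (limma adjusted p = 8.03e-07, n = 4 and 4). EIF4ENIF1, which binds eIF4E and carries it into the nucleus, was called higher by 0.32 in 10X, with overlapping groups. EIF4EBP3 was at 0.47 in 0X and 0.30 in 10X, called in neither, and most of its exon bases (73.2%) are shared with the readthrough gene ANKHD1-EIF4EBP3.

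The widest difference of any member in the 3 comparisons, that between 10X and 0X, lay in EIF5 (chr14:103333544-103345025, plus strand), the GTPase-activating factor of eIF2 that commits the ribosome to a start codon. It had normalized read counts of 6678 and 7151 in 0X, of 12993, 12929, 11593 and 13230.4 in 1X and of 16223, 17132, 16914 and 16573 in 10X. The media formed 3 steps without overlap, in the order of their cysteine. The log2 fold change was -0.87 ± 0.06 in 0X (limma adjusted p = 5.43e-07, n = 2 and 4) and 0.40 ± 0.04 in 10X (limma adjusted p = 3.49e-07, n = 4 and 4). Between 10X and 0X it was 1.27 ± 0.04 (limma adjusted p = 5.26e-19, n = 4 and 2). These 3 calls held under every alternative tried. ENSG00000291313, a gene without a symbol on the same strand, shares 7.71% of the exon bases of EIF5 and differed by -0.94, 0.45 and 1.38. EIF5B, the GTPase of subunit joining, was at -0.14 in 0X, not called, and fell by 0.53 in 10X. EIF6, which keeps free large subunits apart from small ones, was at 0.25 and 0.15 and not called.

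All 3 eIF5A genes were lower in both altered media than in 1X. EIF5A (chr17:7306999-7312463, plus strand) encodes a form of eIF5A, the factor that carries hypusine. Its counts were 22676 and 23014 in 0X, 30275, 27921, 29536 and 27358 in 1X and 13009, 12672, 13974 and 13647 in 10X. The steps were separate, with 10X lowest. The fold change was -0.33 ± 0.05 in 0X (limma adjusted p = 0.000319, n = 2 and 4), lost on leaving out either 0X library, and -1.11 ± 0.04 in 10X (limma adjusted p = 1.00e-12, n = 4 and 4). EIF5AL1, a near copy of EIF5A, had 1109 and 1272 counts in 0X, 1506, 1413, 1588 and 1444 in 1X and 670.2, 704, 709 and 704 in 10X. It held 4.89 to 5.56% of the EIF5A counts in each library, and reads of the pair cannot be told apart here, so it is no separate measurement. EIF5A2, a paralog normally low outside a few tissues, had 294 and 321 counts in 0X, 482, 515, 485 and 541 in 1X and 382, 361, 376 and 435 in 10X. Its order differed from that of EIF5A, with 0X lowest. The fold changes were -0.72 ± 0.10 in 0X (limma adjusted p = 0.000212, n = 2 and 4), lost without 0X replicate 1, and -0.38 ± 0.08 in 10X (limma adjusted p = 0.000539, n = 4 and 4). Between 10X and 0X, EIF5A fell by 0.78 and EIF5A2 rose by 0.34, the latter a call lost in 4 alternatives.

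The elongation factors rose in 10X. All 5 eEF1 genes were called higher there, from 0.11 to 0.61, and 1 of them, EEF1D at -0.27, was called lower in 0X, a call lost on leaving out either 0X library. EEF1A1, which delivers aminoacyl-tRNA, rose by 0.33 in 10X (limma adjusted p = 1.89e-07, n = 4 and 4) and was at 0.11 in 0X, not called. EEF1A2, its paralog of muscle and neurons, rose by 0.61 in 10X. EEF1G, a subunit of the exchange factor that reloads eEF1A, had counts of 77654 and 78329 in 0X, 75515, 69638, 72732 and 72171 in 1X and 88521, 91617, 92889.9 and 93384 in 10X. The 10X libraries were highest and the media did not overlap. Its fold change was 0.34 ± 0.03 in 10X (limma adjusted p = 1.18e-07, n = 4 and 4), and nearly all of its exon bases (99.7%) are shared with ENSG00000255508, which had 101.4% of its count in 1X. The rises of the exchange factor subunits EEF1B2 and EEF1D, by 0.11 and 0.13, were the smallest, and each was lost on leaving out single libraries. EEF1D shares 34.0% of its exon bases with opposite-strand genes. The one with the largest overlap, ENSG00000279605, held 57.8% of the EEF1D count in 1X and differed by -0.17 in 0X and 0.26 in 10X.

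EEF2 (chr19:3976056-3985463, minus strand), the translocase, rose in both altered media. Its counts were 146967 and 146826 in 0X, 131689, 123602, 129512 and 130283 in 1X and 226351, 236078, 234552 and 249861 in 10X. The 1X libraries were lowest and the 10X libraries far highest. The log2 fold change was 0.19 ± 0.04 in 0X (limma adjusted p = 0.00410, n = 2 and 4), lost on leaving out either 0X library, and 0.88 ± 0.03 in 10X (limma adjusted p = 1.61e-12, n = 4 and 4). EEF2K, the kinase that phosphorylates and stops eEF2, had 2073 and 2279 counts in 0X, 1656, 1501, 1652 and 1461 in 1X and 1347, 1281, 1417 and 1310.2 in 10X. It stood highest in 0X and lowest in 10X, without overlap. The fold changes were 0.47 ± 0.08 in 0X (limma adjusted p = 0.000508, n = 2 and 4), lost without 0X replicate 2, and -0.23 ± 0.06 in 10X (limma adjusted p = 0.00288, n = 4 and 4), lost with equal totals. Between 10X and 0X it was -0.70 ± 0.06 (limma adjusted p = 1.50e-10, n = 4 and 2).

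EEF2KMT, a lysine methyltransferase of eEF2, was lower in 10X than in either other medium. It had 1314 and 1477 counts in 0X, 1735, 1544, 1631 and 1582 in 1X and 727, 695, 799.7 and 805 in 10X. Its 10X libraries stood apart, while the 0X libraries lay just below those of 1X. The fold change was -0.22 in 0X, not called, and -1.10 ± 0.06 in 10X (limma adjusted p = 2.00e-10, n = 4 and 4). It shares 31.4% of its exon bases with ALG1 on the other strand, whose difference in 10X was -0.95, and how far one gene's reads set the other's count was not tested.

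As shares of all reads on nuclear genes, EEF1A1 took 0.657 ± 0.014% in 1X (SD, n = 4), 0.727 ± 0.0041% in 0X (n = 2) and 0.848 ± 0.017% in 10X (n = 4). EEF2 took 0.312 ± 0.0075% in 1X, 0.365 ± 0.0039% in 0X and 0.588 ± 0.018% in 10X. The members without EEF1A1, EEF2 and EEF1G took 1.38 ± 0.020% in 1X, 1.37 ± 0.0094% in 0X and 1.33 ± 0.0080% in 10X. Without those 3 elongation factors, the share was lower in every 10X library than in any 1X library.

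A pyrimidine run at the listed start, as in the capitals of the sequences above, was found in 13 of the 49 members in the RefSeq promoter table, beside 5.14% of its 27305 genes. The 27305 include untested genes and are no matched background. Among tested protein-coding genes, 859 had such a start and 11304 had other starts. The 13 members are EEF1A1, EEF1B2, EEF2, EIF2A, EIF2D, EIF2S3, EIF2S3B, EIF3D, EIF3F, EIF3K, EIF3M, EIF4A2 and EIF4B. In 10X against 1X, 9 of these 13 were called higher and 1 lower (EIF3K), with a median log2 fold change of 0.26. Among the 9 is EIF2S3B, the copy that can share reads with EIF2S3. Of the 34 tested members with other starts, 6 were called higher and 20 lower, with a median of -0.28. Among the 20 is EIF5AL1, which is no separate measurement from EIF5A. In 0X against 1X the medians were 0.11 and -0.19, with 1 higher and 2 lower of the 13, and 3 higher and 13 lower of the 34. In 10X against 0X they were 0.16 and -0.12, with 9 higher and 2 lower of the 13, and 10 higher and 13 lower of the 34.

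Over all 859 tested protein-coding genes with such a start, the medians were 0.022, 0.031 and 0.010 in 0X against 1X, 10X against 1X and 10X against 0X. Of these, 104 were called higher and 97 lower in 0X against 1X, 303 and 264 in 10X against 1X, and 291 and 273 in 10X against 0X. Over the 11304 with other starts the medians were -0.023, -0.0037 and 0.0074, with 1122 called higher and 1536 lower, 3276 and 3565, and 3531 and 3505 in the same order. This grouping was chosen after sequences and values had been seen and is a description without a test, and a listed start need not be the start used in these cells.

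In the 300 bases around each listed start (250 before and 50 after), searched on both strands, CACGTG, the E-box bound by MYC and related factors, was found in 12 of the 49 members (24.5%) and in 8.78% of all genes of the table. TGATGNAAN, a form of the element read by ATF4 with CHOP, was found in 1 member (EIF4E3) and in 4.45% of genes. TGACGTCA, the cyclic AMP element, was found in 1 member (EEF2) and in 2.25%. The shares of genes are over the whole promoter table, untested genes included, so they are no matched background for the members. Of the members with the E-box, EEF2K, EIF2B3, EIF3K, EIF4A3, EIF4E, EIF4G1 and EIF5A2 were called lower in the excess medium than in complete medium. EIF1B, EIF3F and EIF4B were called higher there, and EIF4EBP3 and EIF4H were not called. In cysteine-free medium, EIF4E, EIF4G1 and EIF5A2 were called lower, EEF2K higher and the others not. Whether the E-box goes with a direction of change was not tested. The windows of EIF5, EIF1 and EIF5A do not hold the E-box. Such matches describe letters in a window and no binding.

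Other genes of the pathway, from lists of 40 genes of which 39 were tested, were called in both altered media. In 0X against 1X, 15 were called, 4 higher and 11 lower, and in 10X against 1X, 26 were called, 8 higher and 18 lower. These are 38.5% and 66.7% of the genes tested, beside 23.1% and 60.1% of all tested protein-coding genes. The share in 10X is thus near that of protein-coding genes at large. The 0X count fell to 6 on leaving out either 0X library and to 3 with no filter on low values, a limit that applies to the single 0X values of these genes. PDCD4, an inhibitor of eIF4A, was higher by 0.58 in 0X and by 0.81 in 10X. MKNK2, a kinase of eIF4E, fell by 0.28 in 0X and was higher by 0.85 in 10X. Of 9 enzymes that make hypusine on eIF5A or diphthamide on eEF2, 3 were called lower in 0X and 4 in 10X and none higher in either. DOHH, the hydroxylase of the last hypusine step, fell by 0.99 in 0X and by 0.64 in 10X. DPH2, a subunit of the first diphthamide step, was at -0.65 and -0.81, both called, and DPH6, the enzyme of the last step, was at 0.51 in 0X, not called, and at -1.10 in 10X, called.

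PABPC1, the main poly(A)-binding protein, was higher by 0.32 in 0X and 0.48 in 10X, and PABPC4, a relative, fell by 0.25 in 10X. Among the termination and rescue factors, ETF1, which reads stop codons, fell by 0.35 in 0X and rose by 0.16 in 10X. ABCE1, which splits ribosomes, was at -0.26 and -0.16, both called, and PELO, which rescues stalled ribosomes, was higher by 0.48 in 10X. DDX3X, a helicase that helps scanning, was at -0.52 in 0X and -0.44 in 10X, and ABCF1, an eIF2-binding ATPase, at -0.36 and -0.41, all called. Of the 9 mitochondrial translation factors, 7 were called lower and 1 higher in 10X. MTRF1L, a mitochondrial release factor, fell by 0.53 in 0X and rose by 0.44 in 10X. MTIF3, an initiation factor, fell by 0.75 in 10X, and TSFM, the exchange factor of the mitochondrial elongation factor, fell by 0.39 in 0X.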

How the data were processed

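RNA of 10 HEK293T cultures was sequenced as poly(A)-selected libraries. Per the methods and processing notes of the study, the authors aligned reads to GRCh38 with STAR 2.7.10b, counted them per gene and normalized with DESeq2 1.42.0 in R 4.3.3; the methods name featureCounts and the notes HTSeq, and the settings for strand and for reads that map to several places are not given in the sources used here. The deposited signal per gene and library is a normalized read count: the read count divided by a DESeq2 size factor by the authors. Dividing the deposited values by what 1 read is worth in each library gave whole reads in 100% of values (within 0.1 read), from 34836014 to 61654861 per library, and these recovered reads entered only the count tests. Replicates were labelled biological, and p-values measure only the spread between these libraries; no pair agreed within sampling noise.

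Each comparison used its own groups: limma 3.58.1 (lmFit, eBayes with trend) on log2(value + 1) for genes with 10 or more in 3 libraries, 2-sided, Benjamini-Hochberg, called at 0.01. Fold changes on this scale understate changes of low genes. Alternatives were other pseudocounts, filters and scalings, all 3 groups in one model, a block for the replicate number, count tests on recovered reads with edgeR 4.0.16 or DESeq2 1.42.0 (edgeR called 4941, 13525 and 13834 genes in 0X against 1X, 10X against 1X and 10X against 0X), and leaving out each library. The scripts were tested on simulated data. Gene symbols, exon lengths and overlaps came from GENCODE 44, which held 61463 of the 78894 identifiers, and starts from RefSeq.

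Members and gene lists were chosen with earlier results of these data known. Every library's value is given for the 6 called members of largest change in each comparison (mean of 100 or more, groups not overlapping) and for the member of highest level in each remaining role group. The methods say that reads over more than 1 gene were dropped, yet some overlapping genes held nearly equal counts (ENSG00000255508 had 101.4% of the EEF1G count in 1X), so overlapping and near-identical genes are treated here as sharing reads.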

Additional observations from a re-analysis of the deposited data

Results flagged for a closer look

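In 6 of 114 groups of 4 libraries, 1 library stood apart from the other 3 by more than Dixon's critical value of 0.829 (its gap to the nearest library as a share of the range); chance gives about 1 in 20. EIF3J, a loosely attached eIF3 subunit, was lowest in 1X replicate 4, with 2869 normalized reads and a gap of 0.931. EIF3L was highest in 1X replicate 1, with 15225 and a gap of 0.952. In the same library EEF1B2 was highest, with 16522 and a gap of 0.902, and so was EIF2S3, with 15690.4 and a gap of 0.852. EIF4E3 was lowest in 1X replicate 3, with 1154 and a gap of 0.849. EIF5AL1 was lowest in 10X replicate 1, with 670.2 and a gap of 0.854.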

How the results depend on the processing

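The 0X group rests on 2 libraries and the 0X against 1X calls are the least stable: with no filter on low values 3 members were called in place of 21, and leaving out 1 library gave 7 to 25, with 8 without 0X replicate 1 and 7 without 0X replicate 2. In 10X against 0X, no filter gave 27 members in place of 41, and leaving out 1 library gave 33 to 41. In 10X against 1X, leaving out 1 library gave 38 to 42 in place of 43. Over all genes, no filter gave 738 calls in place of 4618 in 0X against 1X and 8864 in place of 13954 in 10X against 0X; it tests 57308 genes. The median over members in 10X against 1X, -0.018, became 0.087 with equal totals, 0.020 with equal totals over nuclear genes and 0.059 with quantile normalization. In 10X against 0X, -0.040 became 0.041 with equal totals and 0.052 with quantile normalization, and -0.069 to -0.0098 on leaving out 1 library. With quantile normalization EIF3E in 10X against 1X was 0.096 and called, and EIF4A1 in 10X against 0X was 0.046, each of opposite sign to the reported value. The cause was not tested. EdgeR called 23, 42 and 42 members and DESeq2 28, 43 and 42. A block for the replicate number gave 27, 41 and 41 called members. Deviations of same-numbered libraries correlated by -0.028 to 0.039 over all tested genes. The noise of low counts enters these correlations, so they show no sign of pairing but cannot exclude it. Over all alternatives, values of single members lost a call 58, 42 and 46 times and gained one 67, 18 and 12 times in 0X against 1X, 10X against 1X and 10X against 0X, and uncalled values near 0, such as EIF2B5 and EIF4H in 10X against 1X, could change sign. Depth limits EIF4E1B, with at most 8 reads in a library, more than the tested members.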

Other observations

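The 1X libraries were spread widely for EIF4A2 and EIF4ENIF1. EIF4A2 had normalized read counts of 9406, 8490.4, 11903 and 6791 in 1X replicates 1 to 4, beside 9769.7 to 10446 in 10X. EIF4ENIF1 had 1676, 1489.8, 1926 and 1273 in the same 1X libraries, beside 1922 to 1984 in 10X. Both were highest in 1X replicate 3 and lowest in 1X replicate 4, and they were singled out after their values were seen.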
